A study of Mus musculus with 6 samples.

Results

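The genes described here carry GABA and glycine transmission, the fast inhibitory signalling of the retina. They are 29 listed receptor subunits, enzymes, transporters and a scaffold protein, matched by symbol among the 55421 genes counted in whole mouse retinas. Their roles give 13 subunits of GABA-A receptors, 2 of the GABA-B receptor, 5 of glycine receptors, 3 enzymes of GABA synthesis or breakdown, 5 transporters and the scaffold Gphn. Other subunits and transporters of the same families were not analysed here. A total of 28 of the 29 passed the filter on low counts and were tested, beside 16575 genes in all. Gabra6, an alpha subunit known from cerebellar granule cells, did not pass, with a count of 1 in control YR615 and 0 in the other retinas.

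The libraries came from 2-month-old mice, 3 Yap cKO animals and 3 controls. Controls carried Yapfl/fl alone, and Yap cKO mice carried Yapfl/fl with the RaxCreERT2 transgene, whose recombinase acts in Müller glia and in the non-pigmented epithelium of the ciliary body. Animals of both genotypes received 4-hydroxytamoxifen at P10 and again at P14, so both groups share the floxed alleles and the drug, and the groups differ in the transgene as well as in the deletion. The labels give an animal code for each library and no sex, litter or batch. Counts assigned to genes ran from 24261799 to 35067068 per retina. Yap1 lay between 9.48 and 9.83 TPM (a level per unit of transcript length that sums to the same total in every retina) in controls and between 3.76 and 3.99 TPM in the Yap cKO group, with a log2 fold change of -1.36 (edgeR quasi-likelihood test, adjusted p = 0.000282). Cell types of the neural retina were present in every library, with the 8 bipolar cell markers summing to at least 1023 TPM.

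In the retina, GABA and glycine are released mainly by amacrine cells, and GABA also by horizontal cells. GABA-A and glycine receptors are chloride channels made of subunits around a pore, whereas the GABA-B receptor is an obligate pair of proteins that signals through G proteins. The Gabrr subunits form a slowly closing GABA-A channel at the axon terminals of bipolar cells. Uptake transporters on neurons and Müller glia end the signal. In whole retina, a change in the number of cells of a type and a change in RNA per cell cannot be told apart.

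Most of these genes were slightly higher in Yap cKO retinas, 1 was clearly lower, and few differences passed the test after correction over all genes. The log2 fold change was above 0 for 27 of the 28 tested genes, against 50.3% of all genes tested, and below 0 for Slc6a13 alone, against 49.7%. The median log2 fold change was 0.29 for the 28 genes and 0.00 for all genes. At an adjusted p of at most 0.05, the GABA-A subunit Gabrr2, the GABA-B subunit Gabbr2 and the glycine transporter Slc6a5 rose, 3 of 28 genes against 0.501% of all genes. The GABA transporter Slc6a13 fell, 1 of 28 against 0.989%. When a minimum fold of 1.5 and a group mean of 5 TPM or more were asked for as well, Slc6a5 remained on the higher side (1 of 28, background 0.211%) and Slc6a13 on the lower side (1 of 28, background 0.585%). Before correction for multiple testing, 16 of 28 genes were higher at p of at most 0.05, where 12% of all genes were, and 1 was lower, where 9.42% were. The TPM of all 3 Yap cKO retinas lay above all 3 controls for 16 genes (15.2% of all genes) and below them for 1 (9.04%). On CPM (read counts per unit of library size) scaled by the trimmed mean of M-values (TMM) these numbers were 15 (12.3%) and 1 (12.4%). Over all genes tested, the median log2 ratio of mean TPM was 0.06, slightly above the median fitted log2 fold change of 0.00.

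**Figure D1:**
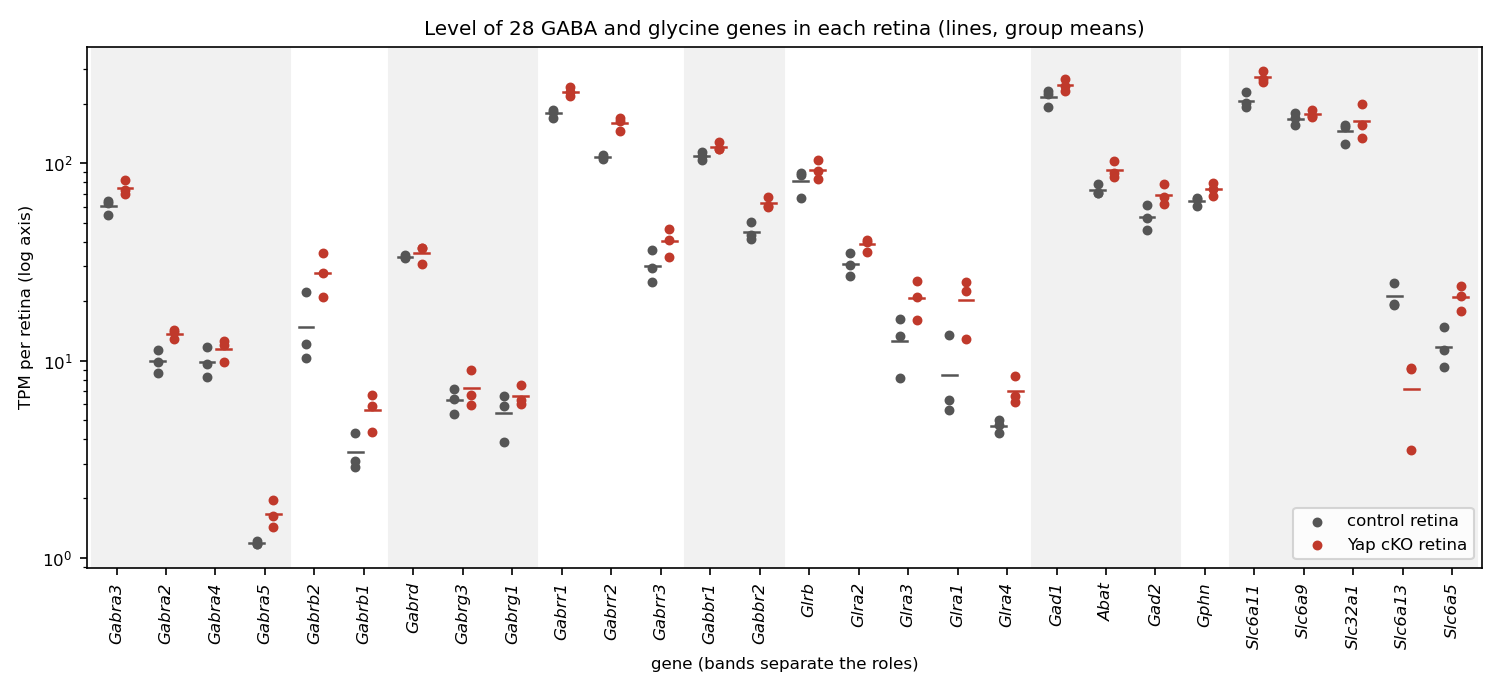
TPM (log axis) of the 28 tested genes in each of the 3 control (grey) and 3 Yap cKO (red) retinas, with short lines at group means and shaded bands separating the roles. Levels run from 1.19 TPM (Gabra5, control mean) to 274 TPM (Slc6a11, Yap cKO mean), and Slc6a13 is the 1 gene whose Yap cKO points all lie below the controls.

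The differences moved with single retinas and, over all genes, with gene length. Log2 fold changes of the 16575 genes correlated with exonic length (Spearman correlation 0.39, across genes, which share the same 6 libraries), whereas the 28 genes showed a correlation of 0.03, with a median exonic length of 5096 bases against 4132 for all genes. A fit that removed the length trend from each retina left the median of the 28 genes at 0.29. With this correction the correlation with exonic length was 0.03 over all genes and -0.24 over the 28. In that fit 5 genes were higher at an adjusted p of at most 0.05 (background 0.971%), the former 3 with Gabrr1 and Slc6a11, and 1 was lower (1.53%). With the fold and level criteria these became 2 higher genes, Gabrr2 and Slc6a5 (0.247%), and 1 lower, Slc6a13 (0.603%). Relative to each gene's mean, the median level of the 28 genes was -0.25, -0.03 and -0.16 (log2 CPM) in controls YR612, YR613 and YR615, and 0.22, 0.10 and 0.05 in the Yap cKO retinas, in the order YR711, YR713, YR714. The correlation of a retina's own relative levels with exonic length, over all genes, was -0.42, 0.19 and -0.42 in these controls and 0.42, 0.41 and -0.14 in these Yap cKO retinas. Control YR612 was the lowest control for 21 of the 28 genes, and YR711 the highest Yap cKO retina for 20.

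**Figure D2:**
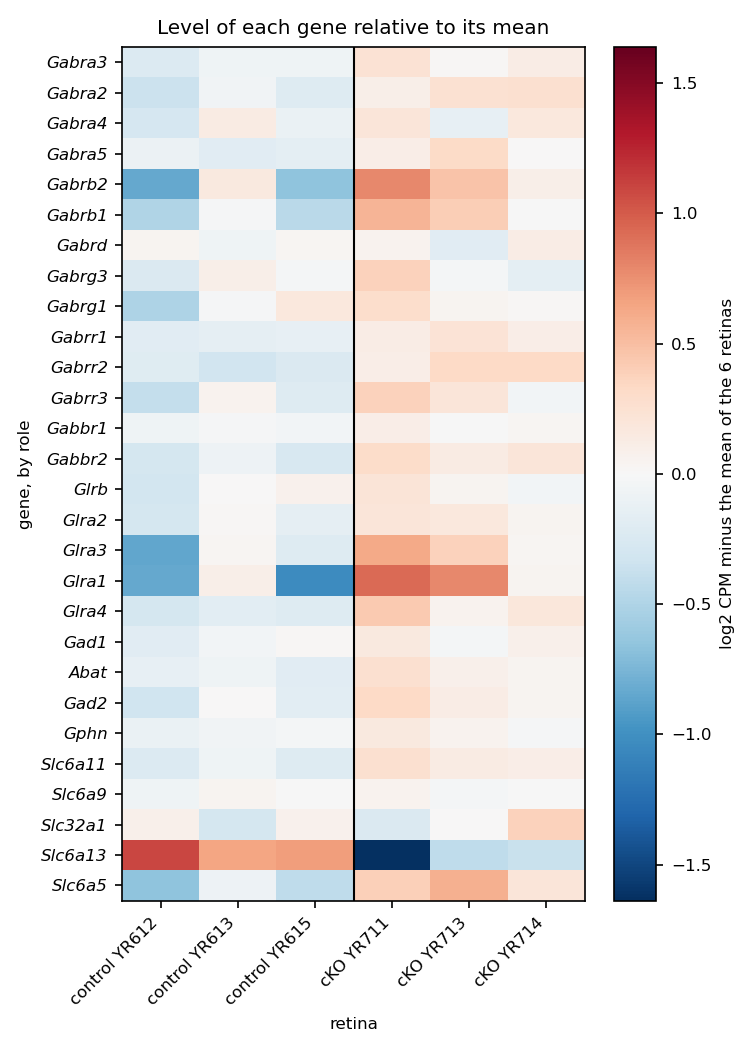
Heat map of log2 CPM for each of 28 genes (rows, by role) in each retina (columns), less the gene's mean over the 6 retinas. Most rows turn from blue in control YR612 to red in Yap cKO YR711, control YR613 and Yap cKO YR714 lie nearer to 0, and Slc6a13 runs the opposite way.

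The Gabrr genes were together the most abundant of the listed GABA-A subunits, and all 3 had log2 fold changes above 0. Gabrr2 alone among them passed the test without the length correction. Together Gabrr1, Gabrr2 and Gabrr3 made up 68.7% ± 1.598 (SD, n = 3) of the TPM of the 13 listed subunits in controls and 70.0% ± 2.48 (SD, n = 3) in Yap cKO retinas, so their share of this list differed by less than the spread between retinas. Gabrr2 stood at 108, 106 and 110 TPM (mean 108) in the controls YR612, YR613 and YR615, and at 146, 169 and 165 TPM (mean 160) in the Yap cKO retinas YR711, YR713 and YR714. The groups lay well apart, and the control values were tightly bunched. Gabrr2 rose by 0.51 ± 0.09 (SE) on the log2 scale, or 1.43-fold (adjusted p = 0.0262), and by 0.61 ± 0.07 with the length correction (adjusted p = 0.00199).

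Gabrr1, which encodes the partner subunit, measured 170, 186 and 183 TPM (mean 180) in controls and 229, 243 and 219 TPM (mean 231) in Yap cKO retinas, again without overlap. Its log2 fold change was 0.30 ± 0.07 (SE), with an adjusted p of 0.0713, and 0.40 ± 0.07 with an adjusted p of 0.0208 once length was corrected for. Gabrr3, the least abundant Gabrr gene, had 25.0, 36.4 and 29.5 TPM (mean 30.3) in controls against 46.7, 40.8 and 33.5 TPM (mean 40.3). Here the lowest Yap cKO retina, YR714, lay below the highest control, YR613, and the log2 fold change of 0.36 ± 0.14 did not pass (adjusted p = 0.185). The ratio of Gabrr1 to Gabrr2 TPM was 1.58, 1.76 and 1.67 in controls and 1.57, 1.44 and 1.33 in Yap cKO retinas, where YR711 all but met control YR612.

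Gabrr2 and Gabrr1 are neighbours on chromosome 4, on the same strand and 36655 bases apart (GRCm38, chr4:33062999-33095865 and chr4:33132521-33163588). Of the distinct 40-base stretches of their transcripts, the length of a read, 82 occur in both genes, which is 3.97% of those of Gabrr2 and 3.65% of those of Gabrr1, so a read that lies wholly within them matches either gene. Since both genes lay higher without overlap, their RefSeq promoter windows (250 bases before to 50 after the start, GRCm38.p6, plus strand, chr4:33062862-33063161 and chr4:33132306-33132605) are shown here. They were searched on both strands for the binding motif of the TEAD factors through which YAP acts on DNA, CATTCC or its complement GGAATG, and neither window holds it.
Gabrr2: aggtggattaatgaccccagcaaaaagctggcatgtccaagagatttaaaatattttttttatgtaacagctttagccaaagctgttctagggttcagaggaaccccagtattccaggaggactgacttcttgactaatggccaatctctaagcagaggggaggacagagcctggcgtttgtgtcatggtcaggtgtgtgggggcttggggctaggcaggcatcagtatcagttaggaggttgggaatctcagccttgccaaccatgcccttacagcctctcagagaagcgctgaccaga
Gabrr1: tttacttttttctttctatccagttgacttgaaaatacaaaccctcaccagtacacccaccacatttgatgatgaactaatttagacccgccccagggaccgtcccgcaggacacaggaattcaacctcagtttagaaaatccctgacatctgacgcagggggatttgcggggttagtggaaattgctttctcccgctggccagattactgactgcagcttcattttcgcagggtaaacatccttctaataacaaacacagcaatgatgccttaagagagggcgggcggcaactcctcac

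Among the alpha subunits, which help form the GABA site, none passed the test. Gabra3 was the most abundant of the listed ones, with 54.5, 64.7 and 63.1 TPM (mean 60.8) in controls and 82.1, 70.2 and 73.1 TPM (mean 75.1) in Yap cKO retinas. The groups did not overlap, and the log2 fold change was 0.25 ± 0.09 (SE, adjusted p = 0.152). Gabra2 had 8.61, 11.3 and 9.90 TPM (mean 9.93) in controls against 12.8, 14.2 and 14.02 TPM (mean 13.7), also without overlap, with a log2 fold change of 0.41 ± 0.10 (adjusted p = 0.0861). Gabra4 averaged 9.84 TPM in controls and 11.4 TPM in Yap cKO retinas (log2 fold change 0.16), and Gabra5, an alpha subunit of extrasynaptic receptors, 1.19 and 1.68 TPM (log2 fold change 0.44), from counts of 24 to 51 per retina. Gabra6 averaged 0.0174 TPM in controls and stood at 0 in all Yap cKO retinas, under the 3 counts that a count of 0 allows, and no fold is given.

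Neither of the listed beta subunits, which receptors need for assembly, passed the test, and both varied between retinas of a group. Gabrb2 measured 10.3, 22.2 and 12.1 TPM (mean 14.8) in controls and 35.1, 27.8 and 20.9 TPM (mean 27.9) in Yap cKO retinas. Control YR613 exceeded Yap cKO YR714, and the log2 fold change of 0.86 ± 0.26 (SE) had an adjusted p of 0.122. Gabrb1 measured 2.88, 4.31 and 3.11 TPM (mean 3.44) against 6.70, 5.91 and 4.33 TPM (mean 5.65), where YR714 and YR613 lay next to each other without overlap (log2 fold change 0.66 ± 0.18, adjusted p = 0.0954). Gabrb1 and Gabra4 overlap by 196 bases on opposite strands of chromosome 5, and the counting used strand.

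None of the gamma and delta subunits passed, and all gave overlapping groups. Gabrd, whose product takes part in tonic inhibition, had 33.5, 33.0 and 34.4 TPM (mean 33.7) in controls and 37.1, 31.0 and 37.4 TPM (mean 35.1) in Yap cKO retinas. Its log2 fold change was 0.00 ± 0.10 (SE) and turned negative when library size alone set the scale (-0.01). Gabrg1 averaged 5.45 and 6.61 TPM (log2 fold change 0.22) and Gabrg3 6.32 and 7.23 TPM (0.13, or -0.06 with the length correction). Gamma subunits take part in clustering GABA-A receptors at synapses.

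The GABA-B receptor pairs Gabbr1, which binds GABA, with Gabbr2, which carries the G protein contact. Gabbr2 (GRCm38, chr4:46662305-46991873, minus strand) stood at 41.2, 50.3 and 43.3 TPM (mean 44.95) in controls and at 67.7, 59.9 and 61.1 TPM (mean 62.9) in Yap cKO retinas. The groups were separate, and Gabbr2 rose by 0.43 ± 0.08 (SE) on the log2 scale, or 1.35-fold (adjusted p = 0.0444). Gabbr1 measured 104, 115 and 109 TPM (mean 109) against 129, 118 and 118 TPM (mean 121), close but not overlapping, with a log2 fold change of 0.09 ± 0.07 (adjusted p = 0.447). The ratio of Gabbr1 to Gabbr2 TPM, a within-retina measure that no library scaling moves, was 2.51, 2.28 and 2.53 in controls and 1.90, 1.96 and 1.93 in Yap cKO retinas. All 3 Yap cKO ratios lay below all 3 control ratios, although with groups of 3 the smallest two-sided p of an exact permutation test is 0.1.

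Glycine receptors combine alpha subunits with Glrb, the beta subunit that ties the channel to gephyrin. Glra1, the main alpha subunit of the adult spinal cord, gave the highest log2 fold change of the 28 genes, 1.21 ± 0.33 (SE), yet an adjusted p of 0.0978. Its values were 6.28, 13.4 and 5.61 TPM (mean 8.43) in controls and 25.2, 22.7 and 12.9 TPM (mean 20.2) in Yap cKO retinas, so that control YR613 and Yap cKO YR714 overlapped. Glra3, another alpha subunit of inner retinal synapses, again overlapped between YR613 and YR714, with 8.16, 16.2 and 13.3 TPM (mean 12.6) against 25.2, 21.0 and 16.0 TPM (mean 20.7) and a log2 fold change of 0.67 ± 0.22 (adjusted p = 0.136).

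Glra2 was the most abundant alpha subunit, at 26.8, 35.3 and 30.5 TPM (mean 30.8) in controls and 41.1, 39.9 and 35.5 TPM (mean 38.8) in Yap cKO retinas. The groups met without overlap, between 35.3 TPM in YR613 and 35.5 TPM in YR714, and the log2 fold change was 0.28 ± 0.10 (adjusted p = 0.165). Glra4, an alpha gene that is inactive in humans, had 4.30, 5.01 and 4.73 TPM (mean 4.68) against 8.33, 6.17 and 6.63 TPM (mean 7.04), without overlap, from counts of 57 to 108 per retina (log2 fold change 0.53 ± 0.16, adjusted p = 0.127). Glrb measured 66.5, 87.8 and 89.6 TPM (mean 81.3) against 104, 91.8 and 83.5 TPM (mean 93.1), overlapping, with a log2 fold change of 0.14 ± 0.11. Of the TPM of the 4 alpha genes, Glra1 took 14.4% ± 4.45 (SD, n = 3) in controls and 22.9% ± 4.13 (SD, n = 3) in Yap cKO retinas, and Glra2 55.2% ± 4.29 and 45.2% ± 4.49. Control YR613 and Yap cKO YR714 lay closest to each other in both shares, overlapping at 19.2% and 18.1% for Glra1 and just apart at 50.4% and 50.04% for Glra2.

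**Figure D3:**
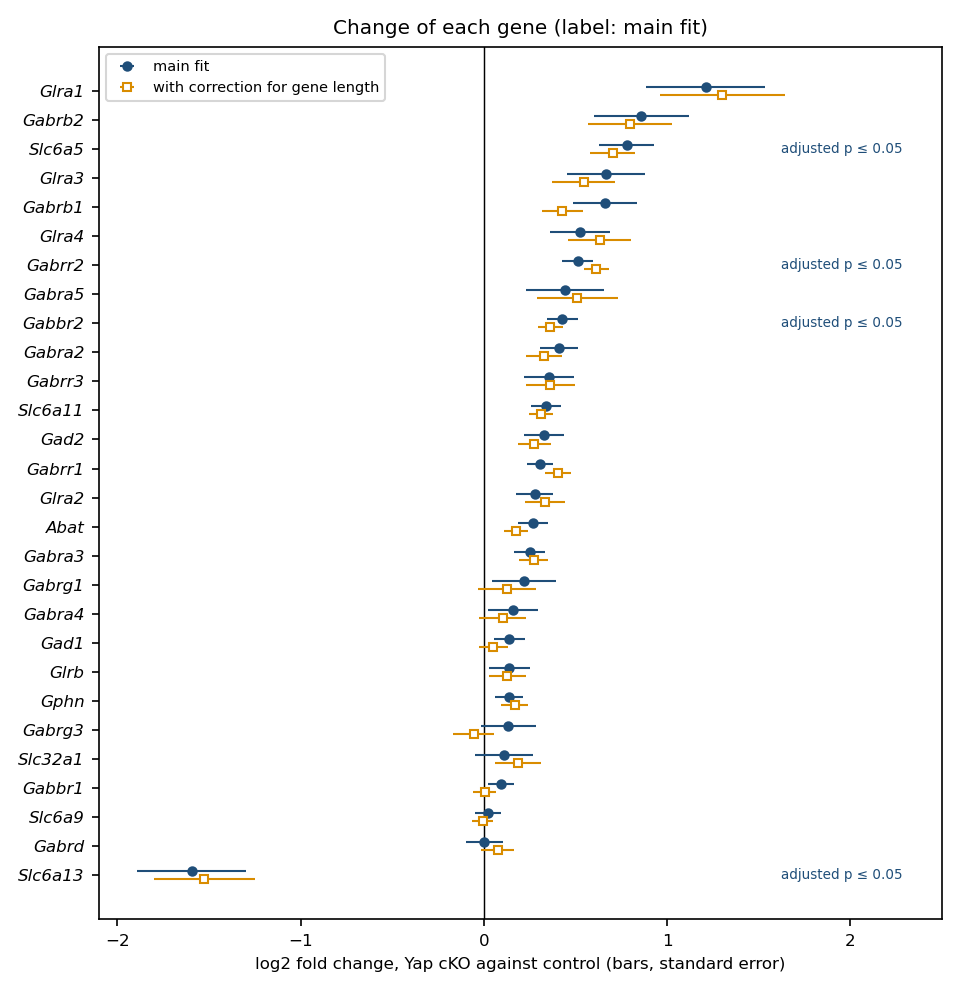
Log2 fold change of each tested gene, Yap cKO against control, with its standard error, in the uncorrected fit (circles) and with the correction for gene length (squares). Gabrr2, Gabbr2, Slc6a5 and Slc6a13 are marked at an adjusted p of at most 0.05 in the uncorrected fit, and Glra1 and Gabrb2 have higher fold changes with wider errors.

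None of the enzymes and not the scaffold passed the test. Gad1, which makes most of the basal GABA pool, measured 194, 226 and 232 TPM (mean 217) in controls and 268, 233 and 245 TPM (mean 248) in Yap cKO retinas, next to each other without overlap (log2 fold change 0.14 ± 0.08, adjusted p = 0.354). On TMM-scaled CPM its groups did overlap. Relative to the gene's mean (log2 CPM), control YR615 was at 0.02 and Yap cKO YR713 at -0.03. Gad2, the synaptic isoenzyme, had 45.7, 61.4 and 52.6 TPM (mean 53.2) against 78.7, 67.3 and 62.3 TPM (mean 69.4), barely separate, with a log2 fold change of 0.33 ± 0.11 (adjusted p = 0.143). The ratio of Gad1 to Gad2 TPM was 4.24, 3.68 and 4.40 in controls and 3.40, 3.46 and 3.94 in Yap cKO retinas, and the 2 groups overlapped. Abat, the transaminase that breaks GABA down, had 70.9, 79.0 and 71.1 TPM (mean 73.7) against 103, 89.5 and 84.9 TPM (mean 92.3), without overlap (log2 fold change 0.27 ± 0.08, adjusted p = 0.128). Gphn, which encodes the gephyrin scaffold under inhibitory synapses, had 60.6, 66.9 and 66.3 TPM (mean 64.6) against 79.9, 73.7 and 68.0 TPM (mean 73.9), also without overlap (log2 fold change 0.14 ± 0.08, adjusted p = 0.326).

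The transporters held both the gene that fell and the gene that met every criterion on the higher side. Slc6a5 encodes GlyT2, the glycine transporter of glycinergic neurons (GRCm38, chr7:49910146-49963856, plus strand). It stood at 9.24, 14.7 and 11.3 TPM (mean 11.8) in controls and at 21.1, 23.9 and 17.8 TPM (mean 21.0) in Yap cKO retinas. The groups were apart, with YR613 again the highest control and YR714 the lowest Yap cKO retina. Slc6a5 rose by 0.78 ± 0.15 (SE) on the log2 scale, or 1.72-fold (adjusted p = 0.0426), and by 0.70 ± 0.12 with the length correction (adjusted p = 0.0196). Slc6a9 encodes GlyT1, the glycine transporter typical of glia and, in the retina, of glycinergic amacrine cells. It averaged 168 and 178 TPM, with a log2 fold change of 0.02 that was -0.01 with the length correction.

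Slc6a11 encodes GAT3, a GABA transporter of glia and, in the retina, also of amacrine cells. It was the most abundant listed transporter at 192, 229 and 202 TPM (mean 208) in controls and 295, 268 and 257 TPM (mean 274) in Yap cKO retinas, without overlap. The log2 fold change was 0.34 ± 0.08 (SE, adjusted p = 0.0735), and 0.31 ± 0.06 with the length correction (adjusted p = 0.0367). Slc32a1, the vesicular transporter that loads GABA and glycine into synaptic vesicles, averaged 145 ± 17.2 TPM (SD, n = 3) in controls and 163 ± 33.0 TPM in Yap cKO retinas, with overlapping groups and a log2 fold change of 0.11.

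Slc6a13 encodes GAT2, a GABA transporter of epithelia and leptomeninges (GRCm38, chr6:121300227-121337733, plus strand). It stood at 24.8, 19.2 and 19.4 TPM (mean 21.1) in controls and at 3.50, 9.02 and 9.12 TPM (mean 7.22) in Yap cKO retinas, from counts of 383 to 476 and of 65 to 228. All Yap cKO retinas were below all controls, and YR711 was the lowest. Slc6a13 fell by 1.59 ± 0.30 (SE) on the log2 scale, or 3.02-fold (adjusted p = 0.0378), and by 1.53 ± 0.27 with the length correction (adjusted p = 0.0214).

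**Figure D4:**
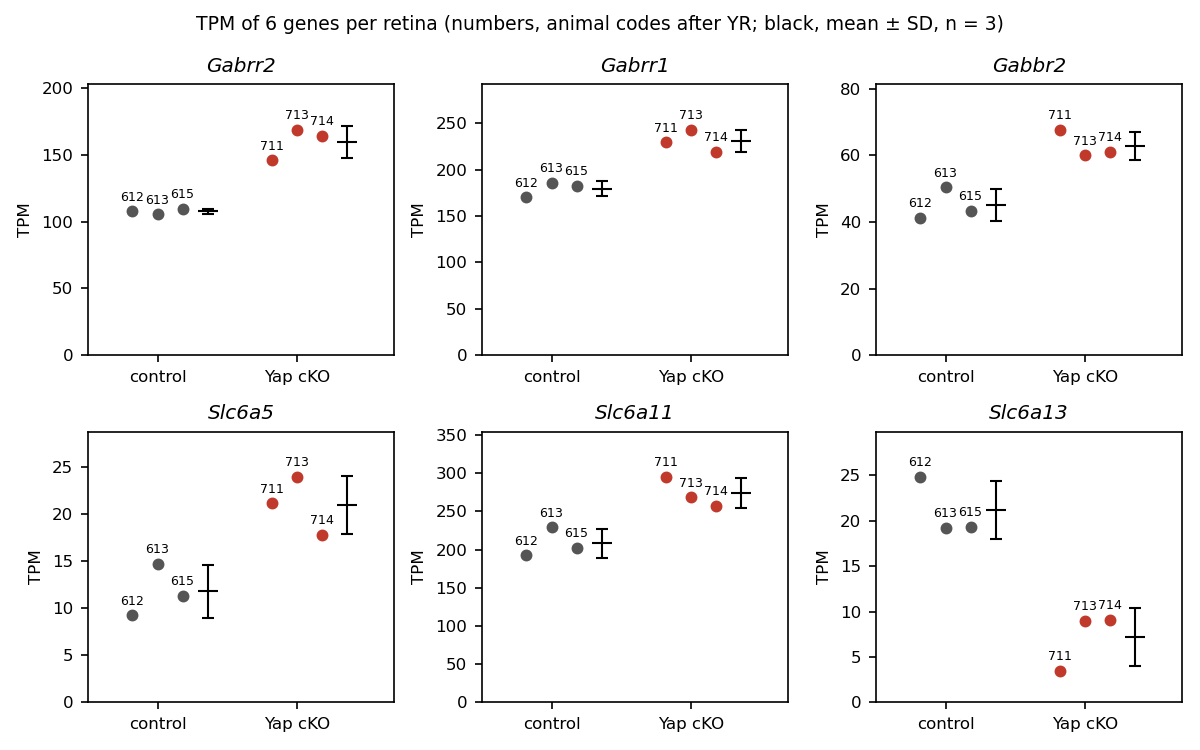
TPM of Gabrr2, Gabrr1, Gabbr2, Slc6a5, Slc6a11 and Slc6a13 in each retina, labelled with the digits of its animal code, with the mean ± SD (n = 3) in black and each axis starting at 0. The groups do not overlap for any of the 6, and relative to its level the narrowest gap is that of Slc6a11, between 229 TPM in control YR613 and 257 TPM in Yap cKO YR714.

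Markers of tissues next to the neural retina were read beside Slc6a13. Of 5 markers of the ciliary body non-pigmented epithelium, 4 were tested and Optc alone passed without the length correction. The list (Optc, Wfdc1, Msx1, Otx1 and Col9a1) was added after values were seen. All 4 tested had log2 fold changes below 0, 3 of them at an unadjusted p of at most 0.05, against 9.42% of all genes. Optc stood at 50.2, 45.6 and 48.2 TPM in controls and at 2.86, 8.39 and 2.44 TPM in Yap cKO retinas, so that all Yap cKO values were far below the controls. Otx1, at a low level, stood at 1.15, 0.727 and 0.888 TPM in controls and at 0.173, 0.466 and 0.135 TPM in Yap cKO retinas. Its log2 fold change was -1.80 (adjusted p = 0.0671), and -1.84 with the length correction (adjusted p = 0.0454). Msx1, which was not tested, averaged 0.506 and 0.126 TPM. Wfdc1 overlapped between the groups, with 27.1 TPM in Yap cKO YR713 against 21.4 TPM in control YR613, and Col9a1 averaged 27.1 and 23.8 TPM. The summed level of the 5 markers, to which Optc gave most of the difference, was 108, 95.8 and 102 TPM in controls and 42.0, 61.0 and 41.9 TPM in Yap cKO retinas, and none was at 0 counts in all retinas.

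All 7 markers of the retinal pigment epithelium had log2 fold changes below 0, against 49.7% of all genes, and none passed. At an unadjusted p of at most 0.05, 2 of them were lower, against 9.42% of all genes. They summed to 635, 703 and 666 TPM in controls and 198, 369 and 676 TPM in Yap cKO retinas, mostly from Ttr. In Yap cKO YR714 the markers differed in direction, with Lrat at 19.1 TPM against 9.12 to 11.6 TPM in controls and Tyrp1 at 5.23 TPM against a control mean of 13.1 TPM. The 6 lens markers summed to 6.11, 3.92 and 16.1 TPM in controls and 2.78, 3.36 and 1.90 TPM in Yap cKO retinas. All 3 that were tested were lower at an unadjusted p of at most 0.05, against 9.42% of all genes, with none passing. The lens markers lay at low levels, with control means from 0.153 TPM (Mip) to 2.40 TPM (Cryaa). Cryaa stood at 5.64 TPM in control YR615, against 0.730 TPM in YR612 and 0.843 TPM in YR613. The 6 fibroblast markers summed to 13.0, 10.8 and 13.1 TPM and to 8.98, 10.8 and 7.80 TPM. Col1a2 fell, from a mean of 3.52 to 0.811 TPM (1 of 4 tested, against 0.989% of all genes). The other tested markers hardly moved, with log2 fold changes of 0.08 (Col1a1), -0.004 (Col3a1) and -0.05 (Pdgfra). Pdgfra, the most abundant, averaged 7.33 and 7.38 TPM. The part of these tissues in the fall of Slc6a13 was not tested.

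Markers of the cell types that use the genes on the higher side were read beside them. The counts below are to be read against all genes, of which 12% were higher and 9.42% lower at an unadjusted p of at most 0.05. Of the 8 amacrine cell markers none passed, and 3 were higher and none lower at an unadjusted p of at most 0.05, namely Chat (log2 fold change 0.42), Th (0.40) and Tfap2b (0.32). The list summed to 1340 to 1517 TPM in controls and 1354 to 1451 TPM in Yap cKO retinas, a sum that is mostly Calb2 (-0.13), and its median log2 fold change was 0.05. Of the 5 horizontal cell markers none passed either, with Onecut1 (0.99), Onecut2 (0.54) and Lhx1 (0.42) higher and the more abundant Calb1 (-0.23) and Septin4 (-0.32) lower at an unadjusted p of at most 0.05. Their median was 0.42, while their sum, set by the last 2, was 244 to 262 TPM in controls and 204 to 238 TPM in Yap cKO retinas.

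Among the 8 bipolar cell markers, which summed to 1023 to 1088 and 1073 to 1220 TPM, Grm6, the glutamate receptor of ON bipolar cells, rose (log2 fold change 0.46, adjusted p = 0.0249), and at an unadjusted p of at most 0.05 there were 4 higher and 2 lower. Of the 9 Müller glia markers Dbi, which encodes a peptide that also modulates GABA-A receptors, fell (log2 fold change -0.64, adjusted p = 0.0190). Before correction for multiple testing 1 was higher and 4 were lower, Dbi among them. With the length correction Rlbp1 passed as well (log2 fold change -0.29, adjusted p = 0.0406). The part of these cell types in the differences described was not tested.

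RefSeq promoter windows were found for 26 of the 29 genes, 35 windows in all. The TEAD motif (CATTCC or GGAATG) lay in 9 of these 35 windows, against 14.7% of all 32851 windows of the same length. Per gene, 9 of the 26 had a match in at least 1 window, against 16.6% of 27025 genes, a set that includes genes not tested here. Of the 15 with an unadjusted p of at most 0.05, a choice made from these same data, 8 had a match. The share among all genes at that p, or among the genes tested, was not computed, so no enrichment is read from these counts. Several of these genes have more than 1 window and so more chances of a match, and a match of 6 letters is a description of the sequence and not a bound site. The windows with a match of the transporter that fell and of the transporter that rose are shown, from RefSeq on GRCm38.p6, plus strand, chr6:121300038-121300337 and chr7:49911450-49911749, with the match in capitals. Slc6a13 has 2 other windows and Slc6a5 has 1 other, none with the motif.
Slc6a13: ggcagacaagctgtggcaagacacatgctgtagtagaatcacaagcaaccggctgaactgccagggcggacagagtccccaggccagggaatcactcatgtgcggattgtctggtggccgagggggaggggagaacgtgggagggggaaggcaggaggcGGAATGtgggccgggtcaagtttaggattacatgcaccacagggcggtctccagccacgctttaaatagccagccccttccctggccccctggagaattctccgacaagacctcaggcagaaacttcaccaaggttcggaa
Slc6a5: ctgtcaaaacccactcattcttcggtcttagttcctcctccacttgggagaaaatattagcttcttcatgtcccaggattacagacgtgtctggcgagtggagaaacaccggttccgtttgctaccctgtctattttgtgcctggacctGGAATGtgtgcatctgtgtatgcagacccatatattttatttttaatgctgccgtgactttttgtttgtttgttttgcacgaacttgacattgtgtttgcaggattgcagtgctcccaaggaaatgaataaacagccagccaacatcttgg

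Genes that work beside these ones were also read as a list of 32, all tested, of which none passed at an adjusted p of at most 0.05 with edgeR. At an unadjusted p of at most 0.05, 9 of the 32 were higher, against 12% of all genes, and 2 were lower, against 9.42%, and their median log2 fold change was 0.12, or 0.07 with the length correction. Among the 18 genes of receptor scaffold, assembly and trafficking, 6 were higher and none lower at that level, to be read against the same shares of all genes. The 4 auxiliary GABA-B subunits gave 2 higher, and the 2 chloride cotransporters gave 1. The 8 genes of GABA and glycine breakdown gave 2 lower and none higher.

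The 3 of the 32 with the lowest p were Gldc, Iqsec3 and Shisa7. Gldc, the decarboxylase of the glycine cleavage system, had 28.4, 28.2 and 25.8 TPM in controls and 20.7, 22.5 and 21.9 TPM in Yap cKO retinas, without overlap (log2 fold change -0.40 ± 0.08, adjusted p = 0.0532). With the length correction its adjusted p was 0.0215. Iqsec3, a partner of gephyrin, had a log2 fold change of 0.35 (adjusted p = 0.0600) and Shisa7, an auxiliary subunit of GABA-A receptors, 0.54 (adjusted p = 0.0634). With the length correction these were 0.13 and 0.47.

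The calls rested on the set of retinas used. When YR612 or YR615 of the controls or YR713 of the Yap cKO retinas was left out, none of the 4 genes kept an adjusted p of at most 0.05, and without Yap cKO YR711 only Gabrr2 and Slc6a13 did. Calls fell over all genes as well. The share passing was 0.331% without YR612, 0.291% without YR615, 0.552% without YR713 and 0.923% without YR711. Without control YR613 there were 12 higher genes and 1 lower, in a fit where 8.84% of all genes passed, and without Yap cKO YR714 there were 9 and 1, where 5.89% did, against 1.49% with all retinas. Over the 6 fits with a retina left out, the log2 fold change ran from 0.47 to 0.57 for Gabrr2, 0.38 to 0.49 for Gabbr2, 0.65 to 0.95 for Slc6a5 and -1.80 to -1.28 for Slc6a13. Their adjusted p ran from 0.0194 to 0.144, 0.0139 to 0.218, 0.00694 to 0.201 and 0.0101 to 0.175. With the length correction Gabrr2 stayed at an adjusted p of at most 0.05 in all 6 of these fits, where 0.550% to 4.49% of all genes passed.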

How the data were processed

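The authors deposited 1 table of counts per gene, made with featureCounts 1.6.2 per the file headers (stranded, Ensembl release 98 on GRCm38) after STAR 2.7.3a alignment of 40-base read pairs per the submitters' notes. TPM was computed here from the deposited counts and exonic lengths. Counts were tested with edgeR 4.0.16 (filterByExpr, TMM, quasi-likelihood test, Benjamini-Hochberg) in R 4.3.3, control against Yap cKO, 3 retinas each. Genes meeting all criteria had an adjusted p no higher than 0.05, changed by a factor of 1.5 or more and reached 5 TPM on average in 1 group. The length correction fitted, per retina, a loess curve (span 0.3) of log2 CPM, less each gene's mean, on log exonic length. The curve entered the edgeR fit as an offset. No pair of libraries agreed within sampling noise. DESeq2 1.42.0 and limma 3.58.1 served as alternatives. The fits were also run on simulated counts with the same dispersion for all genes, which cannot show how the calls depend on single retinas.

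The members and lists were chosen with earlier results of these data known. Every member is named with its level and change. Values per retina are given for those at an unadjusted p of at most 0.05, those without overlap at 1.5-fold and the most abundant of each role. The labels name animals, not whether cohorts were shared. Protein sequences were not used here.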

Additional observations from a re-analysis of the deposited data

How the results depend on the processing

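Log2 fold changes were computed again with 7 other settings and counts of genes meeting all criteria with 9, both also with each retina left out. No paired analysis was possible because the animal codes in the labels differ between the groups. Of 364 values for the 28 genes, 299 kept direction and side of the threshold, 13 turned sign, 14 lost and 38 gained an adjusted p of at most 0.05. The number of genes meeting all criteria on the higher side was 1 with the settings used above. It was 3 with DESeq2, 5 with the likelihood ratio test, 5 with no filter on low counts and 2 with the length correction. With no fold minimum it was 3, and with a retina left out 0 to 5. On the lower side it was 1, and 0 to 1 with a retina left out. With the length correction (a pair of choices added once the data had been seen) leaving out a retina gave 0 to 4 higher and 0 to 1 lower. Of the 32 pathway genes, 0 met all criteria, 1 did with DESeq2, 1 with no filter and 0 to 3 with a retina left out. The sign changes fell on 4 genes with log2 fold changes of 0.00 to 0.13. Gabrg3 was -0.0568 with the length correction and -0.0486 to 0.236 with a retina left out. Gabrd was -0.0127 with library size only, -0.0075 with limma-voom, -0.0042 with no filter and -0.0644 to 0.0916 with a retina left out. Slc32a1 ran from -0.0782 to 0.236 and Slc6a9 from -0.0108 to 0.0480 with a retina left out, and Slc6a9 was -0.0073 with the length correction. The cause was not tested. At an adjusted p of at most 0.05 alone, the counts of higher and lower genes were 8 and 1 with DESeq2, 10 and 1 with the likelihood ratio test, 12 and 1 with no filter, and 3 and 1 with limma-voom. Of the 16575 genes tested, 247 (1.49%) passed at that level with the settings used above, 892 (5.38%) with DESeq2 and 1025 (6.18%) with the likelihood ratio test. With limma-voom 272 (1.64%) passed, and with no filter 1865 of 30129 genes (6.19%) did. With a retina left out, 49 to 1490 passed. Depth limits Gabra5, Gabra6 and Glra4 most.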
